A study of Mus musculus with 2 samples.

Results

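The 10 genes described here belong to the interleukin-6 (IL-6) family response: the cytokine Il6, the receptor chains Il6ra, Il6st, Osmr and Lifr, the signal transducer Stat3, the response genes Socs3, Cebpd and Lrg1, and Gch1. They were chosen by their measured levels in the single-cell counts of these libraries, in endothelial classes, fibroblasts and macrophages, so all of their values are given as a description and none is tested. They are 10 of the 32285 genes in the count matrices, and all 10 were detected in endothelial cells of both libraries.

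Cytokines of the IL-6 family signal through receptor complexes that share the chain encoded by Il6st. IL-6 binds its own receptor chain (Il6ra), oncostatin M pairs the shared chain with Osmr, and leukemia inhibitory factor pairs it with Lifr. The receptors activate Janus kinases, which phosphorylate STAT3, and STAT3 in turn induces Socs3, the feedback inhibitor of the pathway, together with the transcription factor Cebpd and the secreted glycoprotein Lrg1. Endothelial cells are known to carry little Il6ra and to respond to IL-6 mostly through its soluble receptor, and Lrg1 is known as an endothelial gene of veins and of inflamed vessels. Gch1 encodes the rate-limiting enzyme of the synthesis of tetrahydrobiopterin, the cofactor of nitric oxide synthase, and is inducible by cytokines.

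The data were 2 libraries of 10x Genomics 3' single-cell RNA-seq, 1 labelled control and 1 labelled Dnmt1iECKO, each made from the pooled tumors of 3 female mice aged 8 to 10 weeks. The control genotype was labelled C57BL/6, whereas the methods of the study describe its controls as carrying the same endothelial Cre and the ZsGreen reporter without the floxed Dnmt1 alleles, so whether these control mice carried Cre is not settled. Whether they received tamoxifen is not given in the sources used here. The other genotype was labelled Cdh5CreERT2;Dnmt1fl/fl;ZsGreenlsl/lsl, in which a tamoxifen-dependent Cre under the Cdh5 promoter acts on the floxed Dnmt1 alleles. Cdh5 is a pan-endothelial gene, and vessels outside the tumor are targeted too. Both libraries came from live CD31+CD45- sorted cells of tumors of YUMMER1.7, an immunogenic mouse melanoma line, which the labels describe as subcutaneous and the methods of the study as lung tumors seeded from the blood. With 1 pooled library per condition there is no replicate, so a difference between the libraries compares those libraries and has no test.

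The control library held 9301 cells and 123830489 UMIs (unique molecular identifiers, each standing for 1 captured RNA molecule), and the Dnmt1iECKO library 9522 cells and 141433493 UMIs. After the quality filters, endothelial cells were 4854 of 7764 control cells (62.5%) and 2066 of 7839 Dnmt1iECKO cells (26.4%), taken as cells with a UMI of Cdh5 or Pecam1 and none of Ptprc, Epcam, Cspg4 or Myh11 (the rule for the members left out Ptprc+ cells only). The sort was for CD45- cells, yet 332 control and 1481 Dnmt1iECKO cells met a T cell definition with Ptprc, the gene of CD45, and 208 and 628 a macrophage definition. The libraries shared 29 cell barcodes. Levels below are counts per 1000000 UMIs of the same cells (CPM). Their 95% intervals, and those of ratios and shares, cover counting error only, not the spread between cells, mice or libraries. Dnmt1 was at 49.0 CPM in control and 26.7 CPM in Dnmt1iECKO endothelial cells (0.544-fold, 95% interval 0.500 to 0.592), although the 3' tags counted need not lie in the deleted exons.

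Endothelial cells were split by 4 pairs of marker genes, and each cell took the pair with the most UMIs. Ednrb and Car4 mark aerocytes, the capillary cells of gas exchange, Kit and Bmp6 mark general capillary cells, Slc6a2 and Selp veins, and Gja5 and Bmx arteries. The classes are called here by their pairs. Ednrb/Car4 cells were 1530 control and 511 Dnmt1iECKO cells, Kit/Bmp6 cells 2532 and 1025, Slc6a2/Selp cells 147 and 171, and Gja5/Bmx cells 46 and 50, with 599 and 309 endothelial cells left unassigned. Further markers of each class, outside the pairs, were highest in their own class for 4 of 4, 4 of 4, 4 of 4 and 5 of 6 genes in that order, in both libraries. The Dnmt1 log2 ratio was -1.13 in Ednrb/Car4 and -0.83 in Kit/Bmp6 cells, and its interval held 0 in Slc6a2/Selp (-0.28, -0.72 to 0.15) and Gja5/Bmx cells (-0.095, -1.27 to 1.05). Slc6a2/Selp cells without a UMI of Ackr1, a marker of venules, had a Dnmt1 ratio of -0.89 (-1.46 to -0.33), whereas in those with Ackr1 Dnmt1 was higher in the Dnmt1iECKO library (1.12, 0.078 to 2.33), on 9 control and 48 Dnmt1iECKO UMIs. The Slc6a2/Selp share of endothelial cells was 3.03% (exact Clopper-Pearson 95% interval 2.56 to 3.55) in the control and 8.28% (7.12 to 9.55) in the Dnmt1iECKO library, and this difference in makeup touches every value taken over all endothelial cells. Fibroblast RNA touched some values too. The summed level of 6 fibroblast markers was 316 CPM in control and 688 CPM in Dnmt1iECKO endothelial cells, none of the 6 was at 0, and unassigned cells carried the most (2864 and 5326 CPM). Values are therefore also given without cells that carry at least 3 markers of fibroblasts, epithelium, platelets or pericytes with at least 2 UMIs each, which leaves 4575 control and 1888 Dnmt1iECKO endothelial cells. That filter does not cover lymphatic cells. The summed level of 4 lymphatic markers was 935 CPM in control and 3730 CPM in Dnmt1iECKO Gja5/Bmx cells, the latter the highest of any class. Slc6a2/Selp cells held 1407 and 1438 CPM. The part of lymphatic RNA in the Gja5/Bmx values was not tested.

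**Figure D1:**
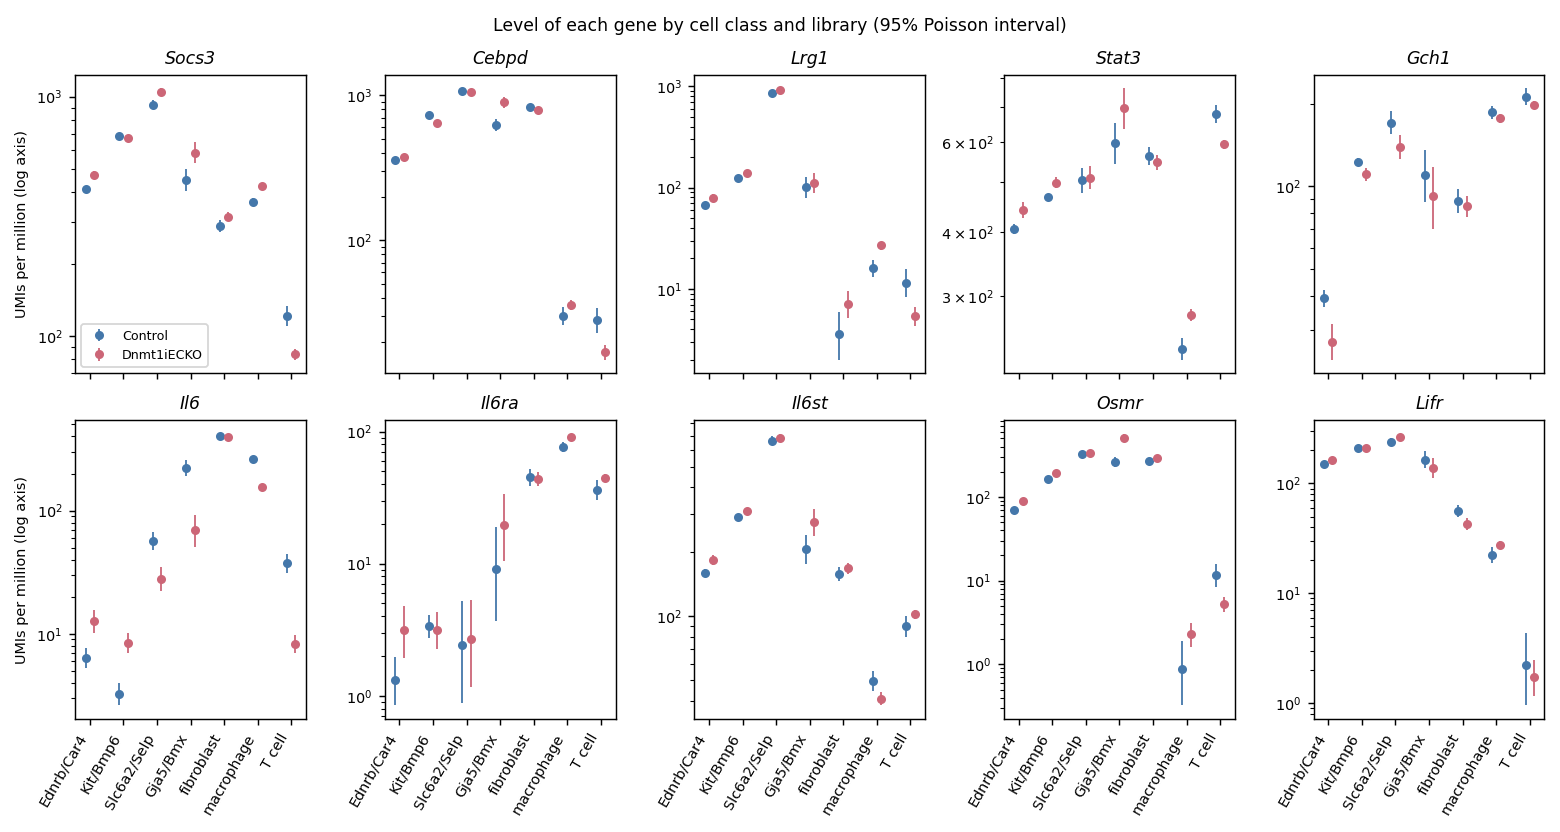
Level of each of the 10 genes in CPM (vertical log axes that differ between panels and do not start at 0) in the 4 endothelial classes, fibroblasts, macrophages and T cells. Points are the control (blue) and the Dnmt1iECKO library (red) and bars are exact Poisson 95% intervals. Lrg1 stood at 860 and 923 CPM in Slc6a2/Selp cells and at no more than 140 CPM in any other class, whereas Il6ra was highest in macrophages (76.5 and 91.4 CPM).

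The ligand Il6 (ENSMUSG00000025746, chr5:30013114-30019981, plus strand of GRCm38) had its highest levels in fibroblasts and macrophages among the groups measured. The intervals of macrophages and Gja5/Bmx cells overlapped in the control. In fibroblasts Il6 was at 399.9 CPM in the control library and 399 CPM in the Dnmt1iECKO library, a log2 ratio of -0.0025 (-0.092 to 0.087). Macrophages held 262 and 154 CPM, a log2 ratio of -0.76 (-0.85 to -0.67). So the libraries differed for Il6 in macrophages by more than counting error, and in fibroblasts no difference was detectable. The 10% of macrophages richest in Il6 held 62.2% of its UMIs in the control and 83.3% in the Dnmt1iECKO library. Over all endothelial cells Il6 was at 19.7 CPM in the control library and 41.4 CPM in the Dnmt1iECKO library, with a UMI in 0.956% and 1.74% of cells thinned to 2000 UMIs each (2.31% and 4.31% of unthinned cells). T cells held 37.4 and 8.23 CPM, with a UMI in 0.307% and 0.340% of thinned cells. Unassigned endothelial cells carried 52.3% of the endothelial Il6 UMIs of the control and 69.8% of those of the Dnmt1iECKO library, and these were also the cells with the highest fibroblast marker level.

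By class, Il6 went from 6.37 to 12.7 CPM in Ednrb/Car4 cells and from 3.23 to 8.47 CPM in Kit/Bmp6 cells, but from 56.6 to 28.0 CPM in Slc6a2/Selp cells and from 222 to 69.4 CPM in Gja5/Bmx cells, from control to Dnmt1iECKO. The log2 ratios were 0.99, 1.39, -1.02 and -1.68 in that order. Few cells made these values. In Gja5/Bmx cells a single control cell held 89 of 170 Il6 UMIs, and a single Dnmt1iECKO cell held 32 of 46. Without cells of other types the 4 log2 ratios were -0.076 (-0.69 to 0.50), -0.13 (-0.77 to 0.49), -0.18 (-0.64 to 0.29) and -0.089 (-2.21 to 2.03), so that no difference in Il6 was detectable in any class at this depth. Over all endothelial cells left by that filter, Il6 was at 5.38 and 7.58 CPM, a log2 ratio of 0.49 (0.21 to 0.78). The fibroblast marker level moved with Il6 in Ednrb/Car4 cells (46.0 to 111 CPM), Kit/Bmp6 cells (100.3 to 178 CPM), Slc6a2/Selp cells (47.8 to 9.77 CPM) and Gja5/Bmx cells (949.7 to 469 CPM). No more than 1 of the 6 markers was at 0 in any class of either library. The part of fibroblast RNA in the Il6 values of all endothelial cells was not tested beyond that filter.

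Of the other cytokines of the family, Osm, which encodes oncostatin M, was at 196 CPM in control and 168 CPM in Dnmt1iECKO macrophages. In endothelial cells without other types Osm was at 0.381 and 0.832 CPM. Lif, the gene of leukemia inhibitory factor, was at 16.7 and 14.2 CPM in fibroblasts and at 16.3 and 9.48 CPM in macrophages. Of the list of 9 family ligands, 3 had at least 100 UMIs in endothelial cells of both libraries together. These were Il6, Lif (2.01 and 1.55 CPM, log2 ratio -0.38, interval -0.93 to 0.16) and Clcf1 (4.92 and 4.50 CPM, -0.13, -0.46 to 0.19), and the intervals of Lif and Clcf1 held 0.

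The receptor chains differed in where they were found. Il6ra (ENSMUSG00000027947, chr3:89864059-89913196, minus strand), the binding chain for IL-6 itself, was at 76.5 CPM in control and 91.4 CPM in Dnmt1iECKO macrophages, at 45.2 and 43.8 CPM in fibroblasts and at 36.3 and 44.7 CPM in T cells. Endothelial cells held 4.15 and 4.96 CPM, and 1.89 and 2.31 CPM without cells of other types. After thinning to 2000 UMIs, 0.534% of control and 0.581% of Dnmt1iECKO endothelial cells had an Il6ra UMI (2.76% and 4.11% unthinned), against 16.9% and 17.8% of macrophages. Thus Il6ra was 40.6 times as high in macrophages as in the filtered endothelial cells of the control and 39.5 times in the Dnmt1iECKO library. Fewer than 50 Il6ra UMIs over both libraries were counted in Ednrb/Car4, in Slc6a2/Selp and in Gja5/Bmx cells, so no order of these classes is read. Without cells of other types the endothelial classes lay between 0.824 and 3.72 CPM.

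Il6st (ENSMUSG00000021756, chr13:112464070-112510086, plus strand), the shared signalling chain, was detected in every group. It was highest in Slc6a2/Selp cells (662 CPM in the control, 682 CPM in the Dnmt1iECKO library), followed by Kit/Bmp6 cells (291 and 310.5 CPM), Gja5/Bmx cells (205 and 276 CPM) and Ednrb/Car4 cells (159 and 183 CPM). Fibroblasts were at 157 and 168 CPM and macrophages at 49.7 and 41.2 CPM. The same order held in both libraries, with Ednrb/Car4 cells and fibroblasts overlapping in their intervals, and with Kit/Bmp6 and Gja5/Bmx cells overlapping in the Dnmt1iECKO library. The level in Slc6a2/Selp cells was 2.27-fold that of Kit/Bmp6 cells (2.16 to 2.40) in the control and 2.20-fold (2.08 to 2.32) in the Dnmt1iECKO library. Within Slc6a2/Selp cells, those with Ackr1 (17 control and 43 Dnmt1iECKO cells) held 1362 and 887.7 CPM of Il6st, and the rest 513.5 and 567 CPM.

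Osmr (ENSMUSG00000022146, chr15:6813577-6874969, minus strand), the oncostatin M receptor chain, was shared by endothelial cells and fibroblasts. In the control it was at 327 CPM in Slc6a2/Selp cells, 265 CPM in fibroblasts, 260 CPM in Gja5/Bmx cells, 165 CPM in Kit/Bmp6 cells and 70.6 CPM in Ednrb/Car4 cells. In the Dnmt1iECKO library the same groups held 334.5, 292, 509.6, 193 and 88.6 CPM. Gja5/Bmx cells thus stood highest in the Dnmt1iECKO library and level with fibroblasts in the control. They were no longer highest without cells of other types, at 283 CPM against 337 CPM in Slc6a2/Selp cells of the Dnmt1iECKO library. Macrophages had 6 Osmr UMIs in the control, 5 of them in 1 cell, and 40 in the Dnmt1iECKO library, 36 of them in 1 cell.

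Lifr (ENSMUSG00000054263, chr15:7090614-7197489, plus strand), the receptor chain for leukemia inhibitory factor, was the member with the flattest endothelial pattern besides Stat3. It was at 240 and 264 CPM in Slc6a2/Selp cells, 209.5 and 212 CPM in Kit/Bmp6 cells, 165 and 139 CPM in Gja5/Bmx cells and 150.4 and 165 CPM in Ednrb/Car4 cells. Fibroblasts held 56.1 CPM in the control library and 42.9 CPM in the Dnmt1iECKO library (log2 ratio -0.39, -0.64 to -0.13), and macrophages 22.4 and 27.6 CPM. The T cell level of Lifr was 2.20 and 1.71 CPM, with a UMI in 0 of 326 and 0.340% of thinned cells, and its source was not tested. The 0 of 326 cells allow a share of up to 0.920%.

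Receptor pairs in the same cell were counted after thinning each cell to 2000 UMIs, which left 4497 control and 1894 Dnmt1iECKO endothelial cells. Il6st was found together with Osmr in 8.38% of control cells (7.59 to 9.23) and 10.6% of Dnmt1iECKO cells (9.21 to 12.03). Il6st and Lifr were found together in 10.0% (9.17 to 10.9) and 13.5% (11.96 to 15.1). Il6st and Il6ra met in 14 control cells, 0.311%, and in 4 Dnmt1iECKO cells, 0.211%. The chains for oncostatin M and leukemia inhibitory factor were therefore detected beside the shared chain in many more endothelial cells than the IL-6 chain. In Slc6a2/Selp cells the Osmr pair reached 24.8% and 27.2% and the Lifr pair 24.1% and 28.4%. In macrophages the Il6ra pair was found in 1.93% and 1.76% of cells, and the Osmr pair in 0 of 207 and 0 of 625 cells, which allows shares of up to 1.45% and 0.480%. Fibroblasts held the Il6ra pair in 1.86% (0.386 to 5.35) and 6.02% (3.41 to 9.74) of cells. They held the Osmr pair in 14.9% (9.79 to 21.4) and 10.4% (6.9 to 14.9).

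Stat3 (ENSMUSG00000004040, chr11:100885098-100939540, minus strand), the transcription factor of the pathway, was broad. Endothelial classes ranged from 406 CPM in Ednrb/Car4 to 596.5 CPM in Gja5/Bmx cells in the control, and from 441 to 697 CPM between the same classes in the Dnmt1iECKO library. T cells held 679.5 and 593 CPM, fibroblasts 563 and 547 CPM and macrophages 237 and 276 CPM. The order was the same in both libraries except that T cells and Gja5/Bmx cells changed places, and their intervals overlapped in the control. Gja5/Bmx cells without other types were at 605 and 573 CPM, below T cells in both libraries.

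Socs3 (ENSMUSG00000053113, chr11:117966079-117970047, minus strand) encodes the suppressor of cytokine signalling that binds the shared receptor chain and blocks its kinases. It was at 926 and 1048 CPM in Slc6a2/Selp cells, 682 and 669.9 CPM in Kit/Bmp6 cells, 449 and 583.5 CPM in Gja5/Bmx cells and 411 and 471 CPM in Ednrb/Car4 cells, in the control and the Dnmt1iECKO library. Macrophages held 364 and 423 CPM and fibroblasts 289 and 314 CPM. Slc6a2/Selp cells were highest and fibroblasts lowest of these groups in both libraries. After thinning, 44.8% of control and 46.2% of Dnmt1iECKO endothelial cells had a Socs3 UMI, which reached 62.8% and 62.1% in Slc6a2/Selp cells (62.0%, 64.2%, 77.6% and 78.9% in that order unthinned).

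Socs3 was the only member whose promoter window held a STAT-type motif, and its sequence is shown for that reason beside the corresponding stretch of Ifit1, the interferon-induced gene used below to sort the cells. The windows were the 250 bases before the RefSeq transcript start (build GRCm38.p6), 9 of the 10 members had at least 1 window and Cebpd had none. The motif searched was TTCNNNGAA, which reads the same on both strands and was found in 2306 of 32851 windows (7.02%). GAAANNGAAA, an interferon-type motif searched on both strands (TTTCNNTTTC on the other), was found in 978 windows (2.98%), in no member, and with 2 matches in Ifit1. The Socs3 stretch, chr11:117969467-117969566 on the minus strand, runs from 200 to 101 bases before the RefSeq start and lies in an intron of a non-coding transcript of the gene in the GENCODE annotation, and its match begins 154 bases before the start. The Ifit1 stretch, chr19:34640749-34640848 on the plus strand, runs from 140 to 41 bases before the start and lies upstream of the annotated gene, with matches that begin 104 and 85 bases before it. Both are printed 5' to 3' on the strand of the gene, with the matches in capitals. A match is a run of letters and not a measured binding site, and the absence of one from a window says nothing of a factor.
Socs3: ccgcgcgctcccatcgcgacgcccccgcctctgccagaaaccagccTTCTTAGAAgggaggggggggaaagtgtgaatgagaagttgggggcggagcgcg
Ifit1: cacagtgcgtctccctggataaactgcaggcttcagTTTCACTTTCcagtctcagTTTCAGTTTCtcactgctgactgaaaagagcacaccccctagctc

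Cebpd (ENSMUSG00000071637, chr16:15887286-15891031, plus strand), a transcription factor of the acute phase, was found in endothelial cells and fibroblasts and little in macrophages. Slc6a2/Selp cells held 1075 and 1044 CPM, fibroblasts 822 and 790.5 CPM, Kit/Bmp6 cells 729.5 and 641 CPM, Gja5/Bmx cells 624 and 891 CPM and Ednrb/Car4 cells 355 and 375 CPM. Slc6a2/Selp cells were highest in both libraries, and Gja5/Bmx cells stood below Kit/Bmp6 cells in the control and above them in the Dnmt1iECKO library. They were below in both once cells of other types were left out, at 661 against 720 CPM and at 601 against 644 CPM. Macrophages were at 30.2 and 35.6 CPM and T cells at 28.0 and 16.9 CPM, and a single Dnmt1iECKO macrophage gave 97 of the 624 UMIs of that group. The gene overlaps Spidr on the opposite strand.

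Lrg1 (ENSMUSG00000037095, chr17:56119678-56122001, minus strand), a secreted leucine-rich glycoprotein, was the most unevenly spread of the well-detected members. Slc6a2/Selp cells held 860 CPM (824 to 897) in the control and 923 CPM (889 to 958) in the Dnmt1iECKO library. Kit/Bmp6 cells followed at 124 and 140 CPM, Gja5/Bmx cells at 101 and 112 CPM and Ednrb/Car4 cells at 66.9 and 79.1 CPM. The level in Slc6a2/Selp cells was 6.93-fold that of Kit/Bmp6 cells in the control and 6.60-fold in the Dnmt1iECKO library. Within Slc6a2/Selp cells, the Ackr1+ cells held 2044 and 1597 CPM of Lrg1, and the rest 609 and 544 CPM. Lrg1 was thus lower in the Dnmt1iECKO library within both subsets (log2 ratios -0.36, interval -0.47 to -0.24, and -0.16, -0.28 to -0.044), while over the whole class it was higher, and Ackr1+ cells were a larger share of that class in the Dnmt1iECKO library. The 10% of endothelial cells richest in Lrg1 carried 85.1% of its UMIs in each library, compared with 44.7% and 47.4% for Socs3. Fibroblasts (3.58 and 7.10 CPM), macrophages (16.0 and 26.8 CPM) and T cells (11.5 and 5.37 CPM) held little, with a UMI in no more than 3.38% of their thinned cells.

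Gch1 (ENSMUSG00000037580, chr14:47153895-47189413, minus strand) stood highest in T cells (212 and 197 CPM) and macrophages (186 and 177 CPM). Among endothelial classes it was at 170.5 and 139 CPM in Slc6a2/Selp cells, 123 and 111 CPM in Kit/Bmp6 cells, 109.9 and 92.0 CPM in Gja5/Bmx cells and 39.3 and 27.3 CPM in Ednrb/Car4 cells. Ednrb/Car4 cells were thus the lowest group in both libraries, and Kit/Bmp6 cells held 3.12-fold (2.88 to 3.39) and 4.06-fold (3.48 to 4.76) their level. A processed pseudogene overlaps Gch1 on the same strand, so that a part of its UMIs could be shared with that copy.

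The profile of a gene over 14 groups (the 4 classes, unassigned endothelial cells, fibroblasts and macrophages in each library) was compared with those of 11300 genes by Pearson's r of log2(CPM + 10). These groups share libraries and overlap in makeup, so r is a description. Among the profiles most like that of Socs3 were those of Piezo1 (r = 0.956), Adam15 (0.947), Pan3 (0.938) and B630019A10Rik (0.936). For Lrg1 they were those of Tmem252 (0.966), Ralgapa2 (0.957), Pim3 (0.950), Adam15 (0.944) and Rab27a (0.935). For Il6ra they were those of Lsp1 (0.981), B3gnt8 (0.979), Notch2 (0.976), Arhgef10l (0.969) and Emd (0.966). Among the members, Lrg1 and Socs3 had r = 0.916, and Il6ra and Lifr had r = -0.956.

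The question between the libraries was how these genes stood in endothelial cells when Dnmt1 was deleted. A gene with at least 100 UMIs over both libraries was called higher or lower where the levels differed at least 1.5-fold (0.58 on the log2 scale), a rule of size and not a test. Over all endothelial cells 2 of the 10 members were called higher, Lrg1 and Il6, and 0 were called lower, in a background of 7.67% of 13011 genes called higher and 2.13% called lower. The median log2 ratio of the members was 0.20 and that of all genes -0.0096. Since the members were chosen with these ratios known, the count describes them and no more.

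Lrg1 was at 135 CPM in control and 203 CPM in Dnmt1iECKO endothelial cells, a log2 ratio of 0.59 (0.54 to 0.64). The difference was smaller once the classes had equal shares. Slc6a2/Selp cells carried 28.6% of the Lrg1 UMIs of the control library while giving 4.48% of its endothelial UMIs, and 52.3% of those of the Dnmt1iECKO library, where they gave 11.5%. With the class shares of the control library in both, the Lrg1 log2 ratio was 0.12, a 1.09-fold difference. Within the classes the ratios were 0.24 (0.092 to 0.39) in Ednrb/Car4, 0.17 (0.091 to 0.25) in Kit/Bmp6, 0.10 (0.020 to 0.18) in Slc6a2/Selp and 0.15 (-0.33 to 0.63) in Gja5/Bmx cells. Unassigned endothelial cells, which also entered the class shares, went from 84.9 to 42.9 CPM of Lrg1 (-0.98, -1.30 to -0.68). Their Lrg1 ratio was -0.24 (-0.56 to 0.07) without cells of other types. Without cells of other types, Lrg1 over all endothelial cells had a ratio of 0.69 and was the only member called (background 5.10% higher and 2.43% lower).

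The other members differed less. Osmr went from 143 to 194 CPM (log2 ratio 0.44, 0.39 to 0.49), and 0.27 with the class shares of the control. Il6st went from 254 to 305 CPM (0.26, 0.22 to 0.30), and 0.11 with those shares. Il6ra had a ratio of 0.26 with an interval that held 0 (-0.064 to 0.58). Over all endothelial cells Osmr and Il6st thus had positive ratios with and without equal class shares. In Ackr1+ Slc6a2/Selp cells both were negative, at -0.38 (-0.62 to -0.14) for Osmr and -0.62 (-0.77 to -0.47) for Il6st, and in the other cells of that class at 0.067 (-0.10 to 0.23) and 0.14 (0.020 to 0.27). Stat3 went from 440.5 to 485 CPM (0.14), Socs3 from 574 to 623 CPM (0.12) and Lifr from 180 to 191 CPM (0.084). Cebpd was level at 607 and 608 CPM (0.0035, -0.024 to 0.031). Gch1 was the member with a negative ratio, at 95.2 and 88.6 CPM (-0.10, -0.17 to -0.032). With Ptprc as the sole exclusion of other cells, 1 member was called higher, Il6ra (0.85), while Lrg1 and Il6 were at 0.41 and 0.58, the latter just short of the limit. The ratios of Socs3 (-0.053), Cebpd (-0.12) and Lifr (-0.085) were then below 0, so their direction over all endothelial cells depends on the gate.

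**Figure D2:**
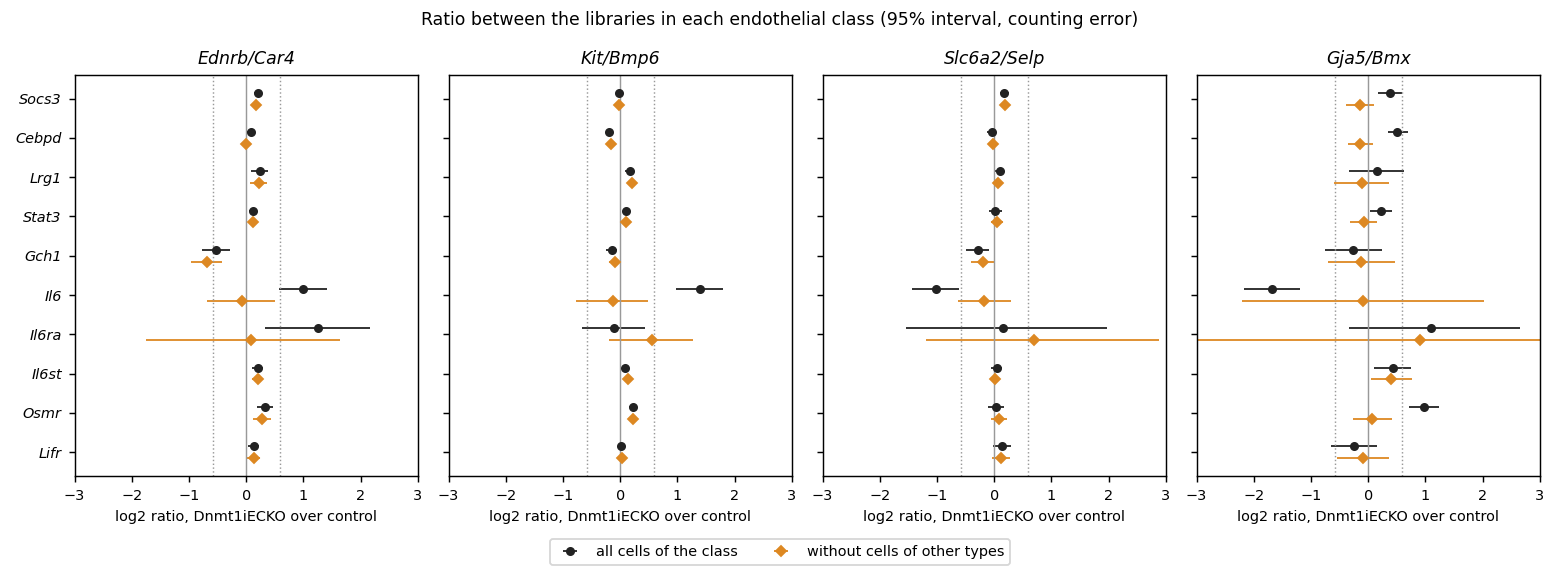
Log2 ratio of Dnmt1iECKO over control for each gene in the 4 endothelial classes, with all cells of the class (black circles) and without cells of other types (orange diamonds). Bars are exact 95% intervals for counting error, clipped at the frame for Il6ra in Gja5/Bmx cells, and dotted lines mark the 1.5-fold limits. The Il6 ratios of 0.99, 1.39, -1.02 and -1.68 all move to between -0.18 and -0.076 without cells of other types.

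In Ednrb/Car4 cells 1 of 9 members with enough UMIs was called higher (Il6, background 3.72%) and 0 lower (background 2.48%). Gch1, at 39.3 and 27.3 CPM, fell just short of the limit there with a log2 ratio of -0.52 (-0.77 to -0.29). Without cells of other types it was at 39.3 and 24.4 CPM (-0.69, -0.96 to -0.42) and past the limit, and it also passed without the highest cell of each library. In Kit/Bmp6 cells 1 of 10 was called higher (Il6, background 4.52%) and 0 lower (background 1.84%), and Cebpd had a ratio of -0.19 (-0.22 to -0.15). The capillary classes, which held most of the endothelial cells, thus differed little between the libraries for Stat3 and Socs3, with ratios between -0.025 and 0.20.

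In Slc6a2/Selp cells 0 of 9 members were called higher (background 3.03%) and 1 lower (Il6, background 2.81%). In Gja5/Bmx cells 1 of 9 was called higher (Osmr, background 6.24%) and 1 lower (Il6, background 10.0%). The Osmr call was not made without cells of other types. Osmr went from 260 to 509.6 CPM (0.97, 0.71 to 1.23) in all Gja5/Bmx cells, 0.67 without the highest cell of each library, and from 269 to 283 CPM (0.072, -0.27 to 0.42) without cells of other types. Cebpd in these cells went likewise from 0.51 to -0.14 (-0.36 to 0.088) on the log2 scale. Over the 4 classes left by that filter, Gch1 in Ednrb/Car4 cells was the only call. The backgrounds called higher were then 2.23% in Ednrb/Car4, 3.25% in Kit/Bmp6, 2.87% in Slc6a2/Selp and 5.01% in Gja5/Bmx cells, and those called lower 2.55%, 1.92%, 2.33% and 5.90%. With 46 and 50 cells, Gja5/Bmx values are the least precise of the 4 classes.

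Genes of the pathway were counted from lists that also hold members. The background over all endothelial cells was 47.7% of 13011 genes above 0, 7.67% called higher and 2.13% lower. The receptor list holds Il6ra, Il6st, Osmr and Lifr. The list of kinases, STATs and adaptors holds Stat3, the inhibitors hold Socs3 and the tetrahydrobiopterin list holds Gch1. Counts of these lists are thus not apart from those of the members. Of 6 family receptors with enough UMIs in endothelial cells 6 had ratios above 0 and 0 were called, with a median of 0.23, and Il11ra1 (17.5 and 19.6 CPM, 0.17) and Il27ra (1.83 and 2.09 CPM, 0.19) stood beside the members. Of 9 genes of the kinases, STATs and adaptors, 5 were above 0 and 0 were called (median 0.040), with Jak2 and Stat5a both at 0.17 and the docking protein Gab1 at -0.12. Of 6 inhibitors 2 were above 0 and 0 were called (median -0.10), with Socs2 at 0.40, Cish at -0.26 and Socs1 at -0.15. The signalling machinery thus had no gene past the limit over all endothelial cells. Of 7 genes of the tetrahydrobiopterin pathway 5 were above 0 and 0 were called (median 0.058), with the endothelial nitric oxide synthase Nos3 at 0.43. By class, 1 of 9 kinases, STATs and adaptors was called higher in Ednrb/Car4 cells (background 3.72%). In Gja5/Bmx cells 1 of 5 of them and 1 of 3 inhibitors were called lower (background 10.0%). There 1 of 3 receptors, Osmr, was called higher (background 6.24%).

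Over all endothelial cells the list of 22 STAT3-linked genes had 19 above 0, 9 called higher, 1 lower and a median of 0.36, in the same background. This list also holds the members Socs3, Cebpd, Lrg1 and Osmr, and Lrg1 is one of the 9. Highest were Saa3 (21.2 and 106 CPM, 2.32), an acute-phase apolipoprotein, Steap4 (4.18 and 9.62 CPM, 1.20), a metalloreductase, and Myc (8.66 and 16.3 CPM, 0.91). Lowest were the chemokine Ccl2 (50.5 and 32.8 CPM, -0.62), the cyclin Ccnd1 (-0.12) and the survival factor Mcl1 (-0.019). Without cells of other types 3 of 21 were called higher and 1 lower (median 0.19), in a background of 5.10% of 12356 genes higher and 2.43% lower, and Saa3 was at 2.99 and 2.36 CPM. Of 11 NF-kappaB-linked genes 10 were above 0, 3 called higher and 1 lower (median 0.35; the lower gene is Ccl2 again), led by the adhesion molecule Sele (32.4 and 77.9 CPM, 1.26), Tnfaip2 (0.84) and Traf1 (0.67). Over all endothelial cells type I interferon genes were closer to level, with 3 of 13 above 0 and 0 called (median -0.094). Among them were Ifit2 at 0.35, Isg15 at -0.20 and Ifit3b at -0.43. Genes induced by tissue dissociation had 11 of 14 above 0, 1 called higher (Nr4a1, 0.63) and 0 lower (median 0.18), with Hspa1a at -0.56. The part of dissociation in the levels of the response genes was not tested. Within the classes the STAT3-linked medians were 0.14 in Ednrb/Car4, 0.19 in Kit/Bmp6, 0.10 in Slc6a2/Selp and -0.032 in Gja5/Bmx cells. In that order 5 of 19, 5 of 20, 0 of 15 and 2 of 17 were called higher. Called lower were 0, 1, 0 and 6. Backgrounds were 3.72%, 4.52%, 3.03% and 6.24% higher and 2.48%, 1.84%, 2.81% and 10.0% lower. The NF-kappaB medians were 0.20, 0.30, 0.19 and 0.38. Called higher were 2 of 10, 3 of 11, 0 of 10 and 4 of 8, and lower 0, 1, 0 and 2. The type I interferon medians were -0.17, -0.014, -0.35 and 0.35, the last on 2 genes. Of these lists 0 of 13, 0 of 13, 2 of 12 and 1 of 2 were called higher, and 1, 0, 4 and 0 lower.

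Co-detection was counted in the same thinned endothelial cells and set against the share that would follow if the 2 genes were independent within each class. Socs3 and Cebpd were found together in 1347 of 4497 control cells, 30.0% (28.6 to 31.3), which was 1.45 times the within-class product (1.38 to 1.51). In the Dnmt1iECKO library they met in 575 of 1894 cells, 30.4%, 1.43 times the product (1.33 to 1.53). Socs3 and Cebpd thus met in the same cells more often than their shares give in both libraries. For Lrg1 this held in the control, at 1.18 times the product with Socs3 (1.05 to 1.32) and with Cebpd (1.06 to 1.32). In the Dnmt1iECKO library its ratios were 1.06 (0.897 to 1.24) and 1.08 (0.913 to 1.26), with intervals that held 1. Socs3 met the immediate early gene Fos at 1.47 and 1.39 times the product, and Junb, another one, at 1.46 and 1.42 times, so that the ratio to these dissociation genes was close to that to Cebpd.

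Over the 45 pairs of members, 28 control and 32 Dnmt1iECKO pairs had a product of at least 0.5% of cells. Among these the interval of the ratio lay above 1 for 17 and 16 pairs and below 1 for 1 and 0, with medians of 1.18 and 1.14. Pairs of all genes were not counted, so these counts have no background and are not read as particular to the members. With genes outside the members, Socs3 met Nfkbia at 1.24 and 1.23 times the product and Stat3 met Fos at 1.26 and 1.22 times. Lifr met Fos at 0.922 and 0.921 times. Osmr and Gch1 met at 1.58 (1.38 to 1.81) and 1.66 (1.36 to 1.995) times the product. Socs3 and Gch1 met at 1.45 times in the control and 1.46 times in the Dnmt1iECKO library. Lifr was apart from the rest, with ratios to Socs3, Cebpd, Stat3, Gch1 and Osmr between 0.880 and 1.01, and its ratio to Cebpd in the control (0.911, 0.840 to 0.986) was the pair below 1. The part of dissociation in these ratios was not tested.

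**Figure D3:**
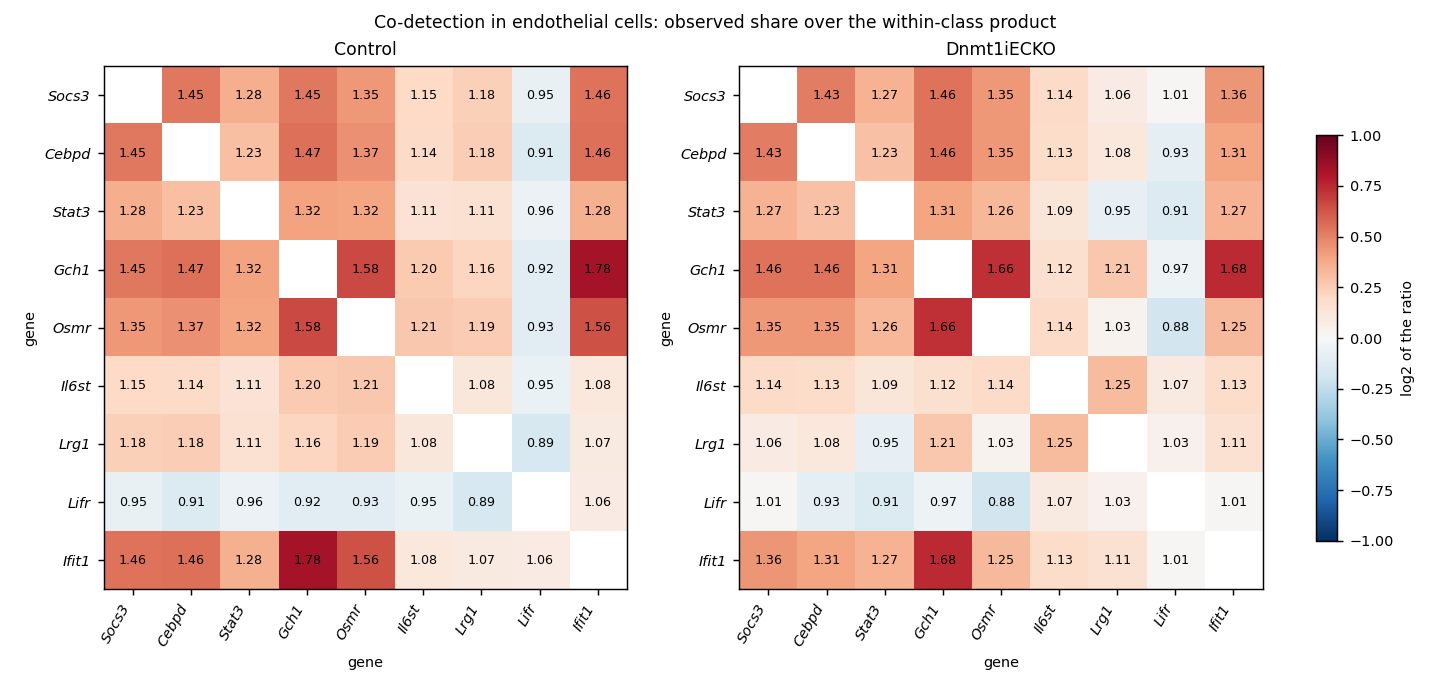
Observed share of endothelial cells with a UMI of both genes over the share expected within classes, after thinning to 2000 UMIs, for 8 members and Ifit1 in the control (left) and the Dnmt1iECKO library (right). Colour is the log2 of the ratio and the printed value the ratio itself. Gch1 with Ifit1 is highest (1.78 and 1.68), and the row of Lifr stays between 0.880 and 1.07.

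The relation to Ifit1, an interferon-induced RNA-binding protein, was read in the same cells. After thinning, 693 of 4497 control endothelial cells (15.4%, 14.4 to 16.5) and 210 of 1894 Dnmt1iECKO cells (11.1%, 9.71 to 12.6) had an Ifit1 UMI, against 33.1% and 27.2% of unthinned cells, and over all endothelial cells Ifit1 was at 141 and 97.9 CPM. By class the thinned shares were 9.21% and 6.46% in Ednrb/Car4, 19.25% and 14.4% in Kit/Bmp6, 20.0% and 11.8% in Slc6a2/Selp and 2.17% and 12.5% in Gja5/Bmx cells, where they rest on 1 and 6 cells. T cells, at 4.29% and 3.60%, and macrophages, at 3.87% and 3.04%, were lower. In the control, 4 of the 10 members were called higher in cells with Ifit1 than in cells without (background 3.32% of 12275 genes) and 1 was called lower, Il6 (background 10.0%). In the Dnmt1iECKO library 2 were called higher (background 2.62% of 11122 genes) and 2 lower (background 14.2%).

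Gch1 had the largest ratio, at 77.1 CPM without and 192.5 CPM with Ifit1 in the control, 2.50-fold (2.36 to 2.65), and at 77.6 and 175 CPM in the Dnmt1iECKO library, 2.25-fold (2.04 to 2.48). Socs3 was at 504 and 949.7 CPM (1.88-fold) in the control and 579 and 979.5 CPM (1.69-fold) in the Dnmt1iECKO library. Cebpd was at 529 and 1029 CPM (1.94-fold) and at 579 and 850.2 CPM (1.47-fold). These 3 genes were thus higher beside Ifit1 in both libraries, with Cebpd just short of the limit in the Dnmt1iECKO library. The Socs3 call there was not made with at least 3 type I interferon genes in place of Ifit1 (319 cells, log2 ratio 0.49) or within Ednrb/Car4 cells (31 cells, 0.53), and Cebpd was called in both (0.62 and 0.81). Osmr was 1.70-fold and 1.28-fold, Stat3 1.38-fold and 1.19-fold, Il6st 1.31-fold and 1.21-fold and Lrg1 1.14-fold and 1.27-fold. Lifr was 1.05-fold (0.998 to 1.11) and 1.10-fold (1.01 to 1.19). Il6 was lower, at 21.9 and 9.34 CPM (0.426-fold) in the control and 46.4 and 7.88 CPM (0.170-fold) in the Dnmt1iECKO library, and Il6ra was at 0.815-fold (0.539 to 1.19) and 0.431-fold (0.170 to 0.916). Slc6a2/Selp cells, with 29 and 20 cells holding Ifit1, went partly the other way. Il6st was lower beside Ifit1 there, at 0.779-fold (0.686 to 0.883) and 0.769-fold (0.666 to 0.885). Lifr was at 0.768-fold (0.618 to 0.947) and 0.835-fold (0.664 to 1.04), and the Stat3 intervals held 1. Gch1 (2.02-fold and 1.82-fold), Socs3 (1.38-fold and 1.33-fold), Osmr (1.39-fold and 1.20-fold) and Cebpd (1.17-fold and 1.12-fold) were higher in that class too.

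Within Kit/Bmp6 cells alone, where class makeup cannot differ, Gch1 was 2.22-fold (2.07 to 2.38) and 2.16-fold (1.92 to 2.43), Socs3 1.75-fold and 1.69-fold and Cebpd 1.84-fold and 1.42-fold. Il6 there was 0.755-fold (0.404 to 1.32) and 0.973-fold (0.534 to 1.67), so that its lower level beside Ifit1 was not detectable within this class. In Ednrb/Car4 cells Il6 was lower beside Ifit1, at 0.138-fold (0.0165 to 0.510) and 0.129-fold (0.00323 to 0.740). Cells with Ifit1 held only 2 and 1 of its UMIs in that class, and those without 114 and 84. The Slc6a2/Selp intervals of Il6 held 1. Lrg1 in Kit/Bmp6 cells was 1.01-fold (0.93 to 1.10) and 1.13-fold (0.992 to 1.28), with intervals that held 1. In Ednrb/Car4 cells Lrg1 was 0.886-fold (0.729 to 1.07) and 0.404-fold (0.241 to 0.638), the latter on 19 UMIs beside Ifit1. In Slc6a2/Selp cells Lrg1 was 0.967-fold (0.87 to 1.07) and 1.23-fold (1.11 to 1.36). In Kit/Bmp6 cells the dissociation genes had ratios above 0 for 14 of 14 in each library, with 10 and 6 called higher (background 3.52% and 2.82%) and 0 lower (background 7.15% and 11.1%). Their medians were 0.75 and 0.58, beside 0.60 and 0.36 for the members. Gch1 and Socs3 were higher still in cells with more Ifit1. Cells with 0, 1 and at least 2 Ifit1 UMIs held 77.1, 152 and 256 CPM of Gch1 in the control and 77.6, 156 and 206 CPM in the Dnmt1iECKO library. Socs3 was at 504, 831 and 1136 CPM and at 579, 787 and 1299 CPM.

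Several other measures moved along this comparison. Over all endothelial cells, 13 of 14 dissociation genes had ratios above 0 in each library, with 6 and 4 called higher and 0 lower, medians of 0.54 and 0.40 and summed levels from 13912 to 22179 CPM in the control and from 16134 to 22434 CPM in the Dnmt1iECKO library. All genes together had medians of -0.13 and -0.11. Kit/Bmp6 cells were 52.5% of cells without and 68.7% of cells with Ifit1 in the control, and 50.5% and 68.1% in the Dnmt1iECKO library. Cells with Ifit1 were also deeper, with a median of 11089 UMIs against 9920 in the control and 11928 against 10398 in the Dnmt1iECKO library. Summed fibroblast markers were lower beside Ifit1 (331 to 251 CPM and 779.5 to 66.7 CPM), as Il6 was. The part of these measures in the relation to Ifit1 was not tested. The 13 type I interferon genes with enough UMIs were called higher beside Ifit1 in both libraries, 13 of 13 each. The STAT3-linked list, which holds Socs3, Cebpd, Lrg1 and Osmr, was mixed. Of its 22 genes 10 were above 0 in each library (medians -0.23 and -0.18). Called higher were 5 and 1 (background 3.32% and 2.62%), and lower 7 and 8 (background 10.0% and 14.2%). Within Kit/Bmp6 cells its medians were 0.26 and 0.17. There 5 of 20 and 1 of 19 were called higher, and 4 and 5 lower.

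**Figure D4:**
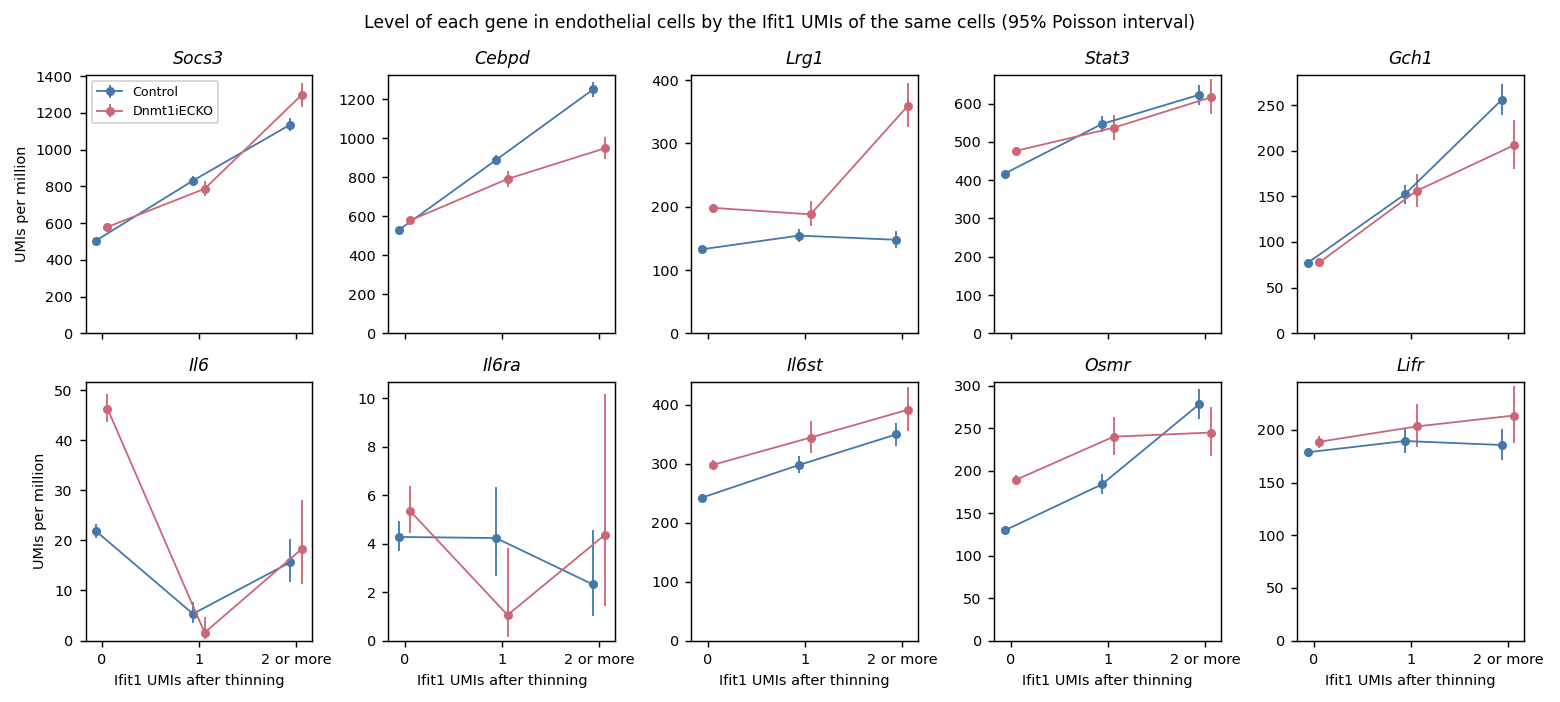
Level of each of the 10 genes in CPM (axes start at 0 and differ between panels) in endothelial cells with 0, 1 and 2 or more Ifit1 UMIs after thinning to 2000 UMIs, in the control (blue) and the Dnmt1iECKO library (red), with Poisson 95% intervals. Gch1 goes from 77.1 to 256 CPM and from 77.6 to 206 CPM, Lifr stays between 179 and 214 CPM, and Il6 is highest in cells without Ifit1.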

How the data were processed

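For 1 control and 1 Dnmt1iECKO library the authors deposited raw UMI counts of each gene in each cell, which had not been normalized. The submitters' processing notes name Cell Ranger on mm10, and the methods of the study give its version as 9.0.1. Cells had already been called. Gene positions came from GENCODE (GRCm38), which held 32158 of the 32285 gene identifiers.

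Cells with over 10% mitochondrial counts or fewer than 500 genes were removed, and in each library the cells that Scrublet scored highest were dropped as doublets (0.4% per 1000 cells, scanpy 1.11.5). A cell took the marker pair with at least 2 UMIs and more than each other pair. Fibroblasts (no UMI of Ptprc, Epcam, Cspg4, Myh11, Cdh5 or Pecam1) and macrophages (Ptprc, no Cdh5, Cd3e or Epcam) needed at least 3 markers of their list with at least 2 UMIs each, and T cells (Ptprc, no Cdh5 or Epcam) at least 2 markers. Counts were summed over cells, with exact Poisson intervals, exact conditional intervals for ratios and Clopper-Pearson intervals for shares (95%). Software was pandas 2.3.3, scipy 1.17.1, numpy 2.4.6 and Python 3.11.15. The calculation was checked on simulated counts. Shares of cells, co-detection and Ifit1 groups used cells thinned to 2000 UMIs. An upper share for 0 cells is that of 3 cells.

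With 1 library per condition no test was run and no p-value is given. The members and lists were chosen with earlier results of these data known. Genes named are the 10 members, in each list up to 3 with the highest and up to 3 with the lowest ratio among those with at least 100 UMIs, and the 5 most alike profiles, among genes with at least 500 UMIs. Osm was named after its values were seen. A few genes that this rule names are not reported here. Alternatives were other minima of genes, mitochondrial limits, doublet rates, gates, class definitions, thinning depths, scalings and Ifit1 rules. Classes, lists and Ifit1 groups without cells of other types, and classes without the highest cell, were chosen after seeing the data.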

Additional observations from a re-analysis of the deposited data

Results flagged for a closer look

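Members are listed here whose log2 ratios of Dnmt1iECKO over control lay on opposite sides of 0, beyond counting error in each, in a pair of endothelial classes, in Slc6a2/Selp cells with and without Ackr1, or in all endothelial cells against fibroblasts, macrophages or T cells. Each group had 1 library per condition, and the difference between the groups was not tested. Il6 was at 1.39 in Kit/Bmp6 cells and -1.68 in Gja5/Bmx cells, and at -0.13 and -0.089 without cells of other types. Il6 was at 1.07 over all endothelial cells, -0.76 in macrophages and -2.18 in T cells. Cebpd was at 0.51 in Gja5/Bmx cells and -0.19 in Kit/Bmp6 cells, and at -0.14 and -0.16 without cells of other types. Il6st was at 0.26 over all endothelial cells and -0.27 in macrophages. Lifr was at 0.084 over all endothelial cells and -0.39 in fibroblasts. Within Slc6a2/Selp cells, Il6st was at 0.14 without and -0.62 with Ackr1, and Lifr at 0.27 and -0.39. Against T cells, the ratios over all endothelial cells and in T cells were 0.12 and -0.53 for Socs3, 0.59 and -1.10 for Lrg1, 0.14 and -0.20 for Stat3 and 0.44 and -1.13 for Osmr. T cells held 42 control and 94 Dnmt1iECKO UMIs of Lrg1, 42 and 92 of Osmr and 136 and 144 of Il6. The thinned shares of T cells with Il6, given above, were low and close to each other, so its T cell levels rest on few cells. The Il6 UMIs of macrophages were also concentrated, with 62.2% and 83.3% of them in the richest 10% of cells.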

How the results depend on the processing

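No paired analysis was possible because each condition had 1 library. Of 46 values that answer a comparison, 32 stayed within 1.5 times the count or within the counting interval as reported and 14 moved. Of 150 values of single genes 37 moved, and with Ptprc as the sole exclusion the ratios of Socs3 (-0.053), Cebpd (-0.12) and Lifr (-0.085) fell below 0. The 2 members called higher in endothelial cells became 1 with at least 1000 genes, with at least 2000 genes, with no doublet removal and with the class shares of the control library in both (Il6 in each). It was also 1 with Ptprc as the sole exclusion (Il6ra) and without cells of other types (Lrg1). Lrg1 lay close to the 1.5-fold limit, and its log2 ratio ranged from 0.12 to 0.69 over 12 alternatives. The 5 calls within classes became 2 with both markers of a pair and of no other pair (Il6 in Kit/Bmp6, Il6st in Gja5/Bmx) and 1 without cells of other types (Gch1 in Ednrb/Car4). The Socs3 and Cebpd ratio was 1.64 and 1.58 at 1000 UMIs per cell and 1.27 in both libraries at 4000. The 2 members called higher beside Ifit1 in the Dnmt1iECKO library became 4 with at least 2 Ifit1 UMIs (77 cells). They stayed 2 with at least 3 type I interferon genes and within Ednrb/Car4, with Cebpd in place of Socs3. The 9 STAT3-linked genes called higher became 3 without cells of other types. The causes were not tested. Il6ra (359 UMIs in all endothelial cells) and Gja5/Bmx cells are limited most by depth.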
